A study of Mus musculus with 16 samples.

Results

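The mitochondrial respiratory chain passes electrons from NADH and succinate to oxygen through complexes I to IV, and complex V, the ATP synthase, uses the resulting proton gradient to make ATP. Most subunits are encoded in the nucleus, while a few core subunits are encoded by the mitochondrial genome and transcribed inside the organelle. In the intestinal crypt, cycling stem cells and the progenitors they give rise to use glycolysis and mitochondrial respiration to different degrees, and the dependence of ISCs on their mitochondria is well known. Respiratory chain genes were taken by gene symbol from the tables of VSG and sham ISCs, as all genes named Nduf, Uqcr, Atp5 or Cox4 to Cox8, the Sdha to Sdhd genes, and the mitochondrial genes of the mt-Nd, mt-Co, mt-Cytb and mt-Atp families. This gave 105 of 48440 genes, 92 nuclear and 13 mitochondrial.

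RNA-Seq was done on GFP+ cells sorted from 7 female Lgr5eGFP mice, in which GFP is expressed from the stem cell gene Lgr5. VSG and sham mice were of similar weight at operation and shared a history of high-fat feeding, which had lasted 16 weeks. In VSG most of the stomach is excised along its greater curvature, and in the sham operation it was only pressed gently. Tissue was taken 4 weeks after surgery and 15 minutes after a liquid meal, as 6 cm of duodenum, jejunum or ileum, and cells positive for CD45, CD31, annexin V or a dead cell stain were removed by sorting. The same 6 mice gave the duodenal and the jejunal libraries, 4 VSG and 2 sham for each segment, while the ileum was represented by 2 VSG and 2 sham libraries. A replicate number stands for the same mouse in every segment, so the 3 comparisons are not independent of each other, and the sham mice are the same 2 throughout. The authors left out libraries with low mapping, and these were not used here. Depth inferred from the values was 10.9 M to 63.6 M reads per library, and 65.1% to 78.1% of genes were listed at 0. This depth is a rough estimate, since only 28.1% to 40.4% of the values above 0 fell on whole reads. By this estimate the ileal sham libraries were the shallowest of all, at 21.5 M and 10.9 M, against 36.4 M and 32.0 M for ileal VSG. In the ileum depth and surgery therefore cannot be told apart, above all for genes at or near 0 after sham. Since GFP also remains in progenitors, and since these are bulk libraries, fewer cells of a type and less RNA per cell cannot be told apart. Values are normalized counts from tables that were scaled separately for each segment, so levels are compared only within a segment.

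By complex, the nuclear genes were 36 subunits and 7 assembly factors of complex I, 4 subunits of complex II, 8 of complex III, 20 of complex IV, 15 of complex V, and the 2 genes Atp5s and Atp5sl, which carry ATP synthase names. Ndufa4 and Ndufa4l2, named after complex I, were counted with complex IV, where the NDUFA4 protein resides. The mitochondrial genes were 7 subunits of complex I, 1 of complex III, 3 of complex IV and 2 of complex V.

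Of the 13 mitochondrial genes, 7 have a near-identical copy on mouse chromosome 1, annotated as an unprocessed pseudogene in GENCODE M21 on GRCm38 (mm10). The 7 copies lie next to each other between positions 24611535 and 24616197 of chromosome 1 on the minus strand, a nuclear insertion of mitochondrial DNA. Reads were 85 bases long. The share of a gene's 85-base windows that also occur in its copy was 99.9% for mt-Co3 (copy Gm28437), 99.5% for mt-Co2 (Gm28661), 99.5% for mt-Atp6 (Gm10925), 98.6% for mt-Nd4l (Gm10222), 97.7% for mt-Nd3 (Gm28438), 61.2% for mt-Nd4 (Gm28439) and 27.0% for mt-Co1 (Gm29216). The first 90 bases of mt-Co3 (chrM:8607-9390, plus strand) and of its copy (chr1:24613189-24613971, minus strand) are shown because no read within them can be assigned to one or the other.
mt-Co3: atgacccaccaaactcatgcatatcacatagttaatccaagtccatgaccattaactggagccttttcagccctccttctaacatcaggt
Gm28437: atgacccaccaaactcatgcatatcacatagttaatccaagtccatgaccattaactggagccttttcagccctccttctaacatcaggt
The first 90 bases of mt-Nd3 (chrM:9459-9806, plus strand) and Gm28438 (chr1:24612775-24613119, minus strand) are shown with their single difference in capitals, T3C, counted from the first base of the gene.
mt-Nd3: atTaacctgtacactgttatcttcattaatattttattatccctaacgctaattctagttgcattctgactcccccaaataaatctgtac
Gm28438: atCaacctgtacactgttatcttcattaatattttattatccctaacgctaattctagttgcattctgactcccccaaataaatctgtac
Over the aligned length, mt-Nd3 and Gm28438 differed at 1 of 345 bases, and mt-Co2, mt-Atp6, mt-Co3, mt-Nd4l and mt-Nd4 did not differ from their copies at any base.

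The division of counts between gene and copy varied between libraries to a different degree for each of these genes. In the duodenum it was nearly constant for mt-Co1, whose own row held 81.6% to 83.5% of the sum, and it ranged from 5.08% to 41.4% for mt-Co3. Adding the copy narrowed the range over libraries for most genes, but widened it for duodenal mt-Atp6 (from 1.35 to 1.78 times the lowest library), jejunal mt-Nd4 (from 3.97 to 4.18 times) and ileal mt-Co1 (from 1.81 to 2.10 times). The genes with the widest variation are described here. For mt-Co3, a core subunit of cytochrome c oxidase, the ileal VSG libraries were at 9546 and 97028 normalized counts and the ileal sham libraries at 217736 and 8683. The libraries of each group thus differed more from each other than the groups did. With the counts of Gm28437 added, the same libraries were at 177842 and 155934 after VSG and at 260899 and 136446 after sham. The highest mt-Co3 value was 25.1 times the lowest for the gene alone and 1.91 times the lowest for the sum. In the ileum mt-Nd3 was listed at 0 in both sham libraries, where Gm28438 held 20905 and 11027, and at 6909 and 5482 in the VSG libraries, where Gm28438 held 7190 and 5623. mt-Nd4l went from 0 in ileal VSG replicate 4 and Sham replicate 1 to 11147 in VSG replicate 5, whose copy was at 0, while its sums were at 8500 and 11147 after VSG and 11310 and 10131 after sham. Sums of gene and copy are therefore given beside the values of the gene's own row in what follows. These sums were made after the values had been seen.

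**Figure D1:**
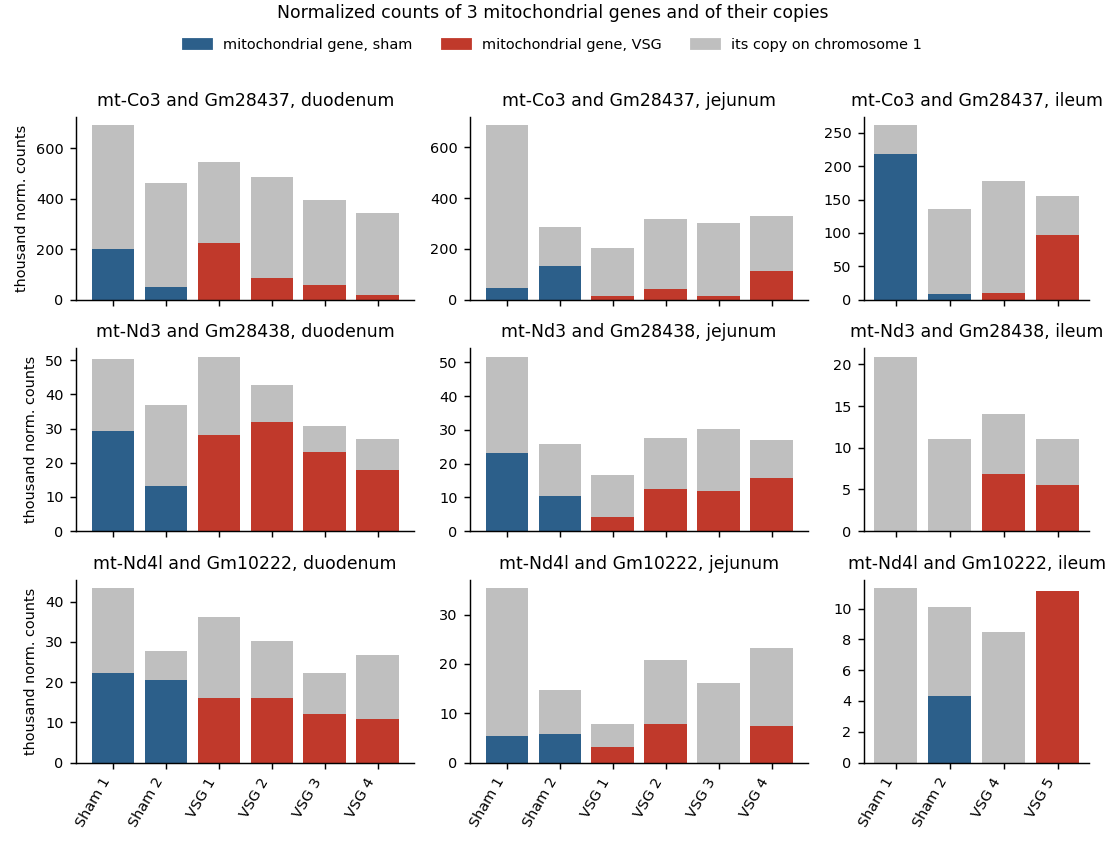
Normalized counts of mt-Co3, mt-Nd3 and mt-Nd4l in each library (blue, sham; red, VSG) with the counts of their chromosome 1 copies stacked on top in grey. The coloured part differs widely between libraries of a group, down to 0 for mt-Nd3 in both ileal sham libraries, while the full height differs less.

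Nuclear members shared little sequence with other genes. Of the 92, 28 had any 85-base window in common with another annotated gene, 9 had over 10% of their windows in common, and none had over 50%. Promoter sequence was matched in RefSeq (GRCm38.p6) for 76 of the 92 nuclear members, as 250 bases before to 50 after the annotated start. All motifs were searched on both strands. The palindromic motif of NRF1, a transcription factor of nuclear respiratory genes, was present in 18 of the 76 (23.7%), against 4.78% of all 27025 promoters. YY1, searched as AAGATGGC, was present in 13.2% against 2.88%, and the ETS motif of GABP, CCGGAAGT, in 6.58% against 4% of all promoters. The TATA motif TATAAA was present in 9.21% against 14.2%, and the SP motif GGGGCGGGG in 17.1% against 11.6%. Bases upstream of the start are shown for Ndufs5, which holds an NRF1 match (in capitals), and for Cox7a1, the muscle-type subunit isoform described below, which holds none.
Ndufs5 (chr4:123718203-123718336, minus strand): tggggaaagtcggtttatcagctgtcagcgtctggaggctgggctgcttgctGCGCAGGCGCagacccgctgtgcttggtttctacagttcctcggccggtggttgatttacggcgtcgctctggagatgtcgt
Cox7a1 (chr7:30184021-30184143, plus strand): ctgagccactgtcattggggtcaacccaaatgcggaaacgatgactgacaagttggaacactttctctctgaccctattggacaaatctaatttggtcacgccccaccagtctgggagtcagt
A match describes these letters only, and binding was not measured.

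The mitochondrial genes took 3.37% to 9.87% of all normalized counts of a library, and 5.06% to 12.6% with the copies added. In the duodenum the share with copies was 11.1%, 10.1%, 8.01% and 7.13% after VSG, against 12.4% and 8.76% after sham. In the jejunum it was 5.06%, 8.49%, 8.10% and 9.29% after VSG, and 12.6% and 7.61% after sham. In the ileum it was 7.41% and 6.73% after VSG, and 11.1% and 6.48% after sham. The groups overlapped in each segment, and Sham replicate 1, a single mouse, had the highest share in all 3. With copies added, that mouse was also the highest library for 11 of 13 mitochondrial genes in the duodenum and for 13 of 13 in the jejunum and the ileum. The nuclear members took 1.30% to 2.31% of the counts. For them Sham replicate 1 lay within the VSG range in the duodenum (1.97%, against 1.82% to 2.27%) and the jejunum (1.76%, against 1.74% to 1.99%). In the ileum Sham replicate 1 was the highest library (1.64%, against 1.53% and 1.41% after VSG and 1.30% in Sham replicate 2). By summed normalized counts of the nuclear members it was the highest library in both the jejunum (827480) and the ileum (408903).

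**Figure D2:**
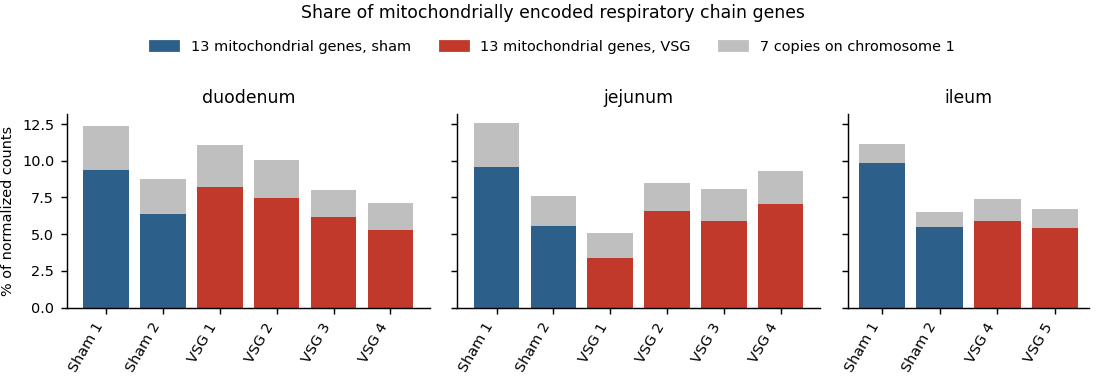
Percent of each library's normalized counts from the 13 mitochondrial genes (blue, sham; red, VSG) and from their 7 copies on chromosome 1 (grey), by segment. Sham replicate 1 is the highest library in each segment, at 12.4%, 12.6% and 11.1%, and the other sham library lies among the VSG libraries or just below them.

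Per kilobase of gene and with copies added, mt-Atp6, mt-Co1 and mt-Co2 were the most abundant mitochondrial mRNAs, and mt-Nd5 and mt-Nd6 were among the least. In the duodenum the median over the 6 libraries was 960520 normalized counts per kb for mt-Atp6, 846330 for mt-Co1, 765270 for mt-Co2 and 603340 for mt-Co3, followed by 412740 for mt-Cytb, the mitochondrial subunit of complex III. The complex I genes followed at 262290 for mt-Nd4, 251370 for mt-Nd1 and 151510 for mt-Nd2, with mt-Atp8 at 235040 between them. mt-Nd3 (114590), mt-Nd4l (97637), mt-Nd6 (71791) and mt-Nd5 (70319) were the lowest. Each gene's range over libraries overlapped that of its neighbour in this order. mt-Atp8 overlaps mt-Atp6 on the genome and mt-Nd4l overlaps mt-Nd4, so their levels depend on how reads in the overlap were assigned. The same 3 genes led in the jejunum, at 664950, 497100 and 495710 per kb, and in the ileum, at 365800, 284130 and 276020.

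**Figure D3:**
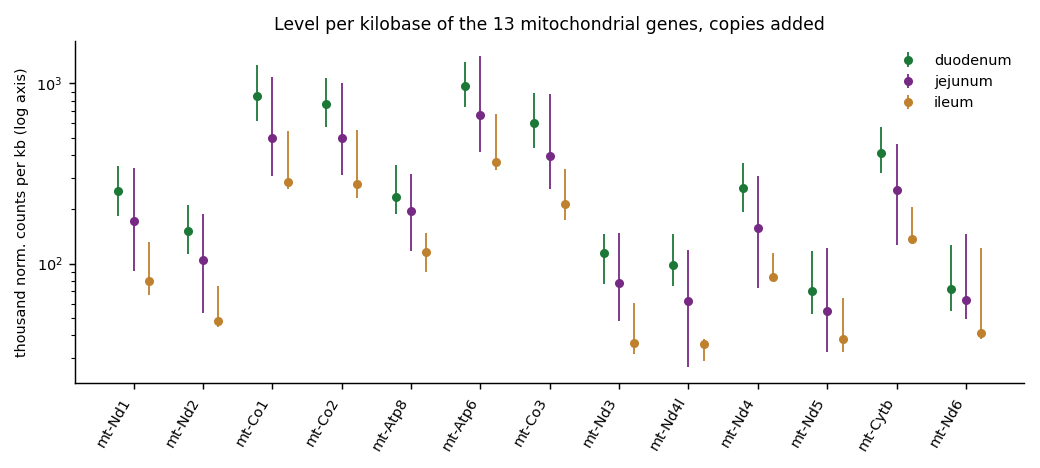
Normalized counts per kilobase (log axis) of the 13 mitochondrial genes in genome order, mt-Nd6 of the other strand last, copies added; points are medians over the libraries of a segment and bars run from the lowest to the highest library. mt-Atp6, mt-Co1 and mt-Co2 are highest in each segment; segments were normalized separately, so the offset between colours is not a difference in level.

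Each segment was compared for VSG against sham with limma after adding 1 to each normalized count and taking log2. Genes whose mean exceeded 10 entered the test, and a call required a mean above 50, a log2 fold change beyond 0.5 in either direction, an unadjusted p under 0.05 and a Benjamini-Hochberg adjusted p under 0.2. No respiratory chain gene was called in any segment by limma, in the duodenum (background 0.0237% of 16867 genes), the jejunum (0.0126% of 15857) or the ileum (0% of 13853). The smallest adjusted p among the members was 0.65, 0.76 and 0.74 from duodenum to ileum. At an unadjusted p under 0.05, 3 members were lower and none higher in the duodenum (Atp5j, Ndufs5 and mt-Nd4l), where 3.48% of all genes were lower and 2.79% higher. In the jejunum Ndufaf1 and Ndufab1 were lower and Atp5s higher (all genes 2.4% and 3.63%), and in the ileum Ndufa10 and mt-Nd3 were higher and no member lower (2.09% and 1.19%). Leaving out a sham library, or any ileal library, leaves 1 library in that group, which the fit then assumes to vary like the other group, so the following calls are counts and no support for a difference. Without Sham replicate 2, 11 nuclear members and 1 mitochondrial member were called in the jejunum, where 2653 of 15857 genes were then called. Without VSG replicate 4 or 5, 1 nuclear member was called in the ileum, where 655 and 731 genes of all were then called. Without VSG replicate 5 or without Sham replicate 1, 1 mitochondrial member (mt-Nd3, by its own row) was called in the ileum, where 731 and 303 genes of all were then called.

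The mitochondrial genes lay on the low side of 0 in most cases. By their own rows, 12 of 13 had a log2 fold change below 0 in the duodenum (all genes 49.3%), all 13 in the jejunum (45%), and 11 in the ileum (43%), with medians of -0.26, -0.63 and -0.36. After quantile normalization 11, 9 and 7 of the 13 lay below 0, with medians of -0.16, -0.20 and -0.050. With copies added, 13 of 13 lay below 0 in each segment, with log2 fold changes from -0.52 to -0.16 (median -0.25) in the duodenum, -0.71 to -0.34 (median -0.59) in the jejunum and -0.85 to -0.14 (median -0.30) in the ileum. The median over all genes was 0.01, 0.11 and 0.24. None of these 39 differences had a limma p under 0.05. The smallest limma p was 0.11, 0.13 and 0.15 and the smallest limma adjusted p 0.86, 0.76 and 0.74. By exact permutation the smallest p was 0.267, 0.133 and 0.333. With 2 sham libraries such p-values do not show that a difference is absent. The 13 genes are transcribed from the same genome as long precursors and do not vary independently. The direction rested on Sham replicate 1: without it, 6, 7 and 5 of the 13 lay below 0, with medians of 0.02, -0.00 and 0.07.

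mt-Cytb, which has no copy among the 7, showed this pattern in its own row. In the duodenum VSG values were 562409, 492767, 428720 and 365680 normalized counts, and sham values 652011 and 451577. mt-Cytb had a log2 fold change of -0.25 ± 0.38 (SE, limma adjusted p = 0.91), and it was -0.48 ± 0.68 in the jejunum and -0.27 ± 0.29 in the ileum, with overlapping groups in each. mt-Nd4l in the duodenum was at 15910, 16084, 12169 and 10931 after VSG and 22248 and 20385 after sham, so its VSG libraries all lay below sham, with a log2 fold change of -0.65 ± 0.23 and an limma adjusted p of 0.65. With Gm10222 added, the mt-Nd4l libraries overlapped, at 36181, 30262, 22158 and 26771 after VSG and 43264 and 27734 after sham. mt-Nd3 in the duodenum changed sign, from a log2 fold change of 0.33 ± 0.35 by its own row to -0.23 with Gm28438 added. In the ileum, where the mt-Nd3 row was listed at 0 in both sham libraries, the log2 fold change of the mt-Nd3 sum was -0.28, and the jejunal value by its own row was -0.63 ± 0.53. mt-Co3 by its own row had log2 fold changes of -0.62 ± 0.87, -1.20 ± 0.78 and -0.51 ± 1.73 from duodenum to ileum, and -0.38, -0.66 and -0.18 as sums.

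Among the nuclear members, 86, 87 and 86 were tested from duodenum to ileum after the mean filter, and those not tested were listed at 0 in every library of the segment, apart from Cox6b2 in the ileum. The nuclear members tested varied less between libraries than most genes: the median within-group SD on the log2 scale was 0.21 against 0.67 for all genes in the duodenum, 0.28 against 1.00 in the jejunum and 0.62 against 1.52 in the ileum. Genes were not matched by count level for this. Among genes with a mean above 50, 11.6%, 20.2% and 36% of all genes were at 0 in a library from duodenum to ileum, against 0%, 3.49% and 7.14% of nuclear members. In the duodenum 66 of 86 had a log2 fold change below 0, with a median of -0.15 against 0.01 for all genes. In the jejunum 61 of 87 lay below 0, with a median of -0.19 against 0.11. In the ileum 47 of 86 lay below 0, with a median of -0.08 against 0.24. These counts and medians depended on the scaling. With each library scaled to the same total, 56 (median -0.068), 38 (median 0.035) and 43 (median 0.029) nuclear members lay below 0 from duodenum to ileum, against medians over all genes of 0.088, 0.33 and 0.35. After quantile normalization 56, 48 and 44 lay below 0, with medians of -0.063, -0.049 and -0.032. The ileal median was 0.13 without VSG replicate 5, 0.28 without Sham replicate 1 and -0.52 without Sham replicate 2. The normalized counts of jejunal Sham replicate 1 summed to 47.1 M and those of the other jejunal libraries to between 33.5 M and 34.5 M. All 4 VSG libraries lay below both sham libraries for 17 nuclear members in the duodenum (19.8% of those tested, background 8.01%) and 17 in the jejunum (19.5%, background 6.21%), and above for 1 (1.16%, background 6.44%) and 5 (5.75%, background 6.59%). In the ileum, with 2 against 2, the numbers were 15 below (17.4%, background 11.6%) and 10 above (11.6%, background 17%). These overlaps refer to the values as deposited and, for some members, do not hold with libraries scaled to the same total.

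**Figure D4:**
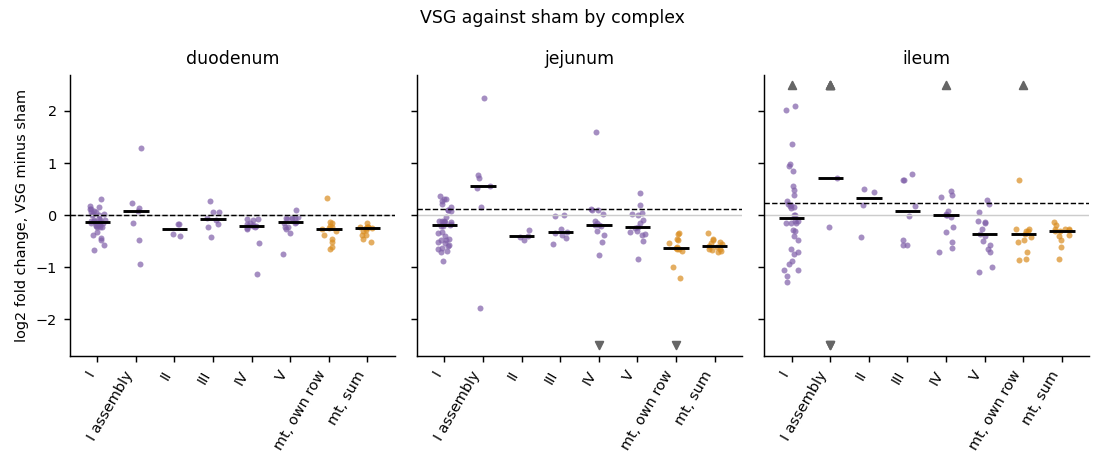
Log2 fold change, VSG minus sham, of each tested member by complex (purple, nuclear; orange, mitochondrial by their own row or as sums with the copies), with group medians as bars and the median of all genes as a dashed line. Triangles mark values beyond 2.5 on the log2 scale; most groups sit below the dashed line, the ileal complex I assembly factors scatter most, and the mitochondrial sums sit closer together than the own rows.

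Markers of enterocytes, the absorptive cells, and of other cell types were examined in the same libraries, and limma called none of them in any segment. The 12 enterocyte markers were summed to 358660 to 755026 normalized counts after VSG and 855192 to 1268260 after sham in the duodenum, with no overlap, and all 12 had a log2 fold change below 0, 8 of them at an unadjusted limma p under 0.05, and the smallest limma adjusted p of the list was 0.29. In the jejunum they were summed to 549330 to 1079870 after VSG and 916185 to 2496700 after sham, and all 12 were below 0, 4 of them at an unadjusted limma p under 0.05, with a smallest limma adjusted p of 0.73. In the ileum 6 of 12 were below 0. None of the 12 was at 0 in all libraries of a segment. The 8 tuft cell markers were summed to 18678 to 38752 after VSG and 5481 to 13557 after sham in the duodenum, and all 8 were above 0, 6 of them at an unadjusted limma p under 0.05. In the jejunum all 8 tuft, all 8 goblet and all 9 Paneth cell markers were above 0, with 5, 5 and 2 at such an unadjusted p, and the summed levels of each list overlapped between groups. The 12 stem cell markers overlapped between the groups in the duodenum (92833 to 187459 after VSG, 118886 to 126999 after sham). In the jejunum they were summed to 52355.7 to 71906.5 after VSG, 19221 in Sham replicate 1 and 67112 in Sham replicate 2. Sham replicate 1, on which the direction of the mitochondrial sums rested, was thus the lowest jejunal library for stem cell markers. It was also the highest jejunal library for enterocyte markers (2496700). In the ileum the stem cell markers were summed to 15969 to 21926 after VSG and 6885 to 10749 after sham. Of those tested, 9 of 12, 11 of 12 and 9 of 11 stem cell markers lay above 0 from duodenum to ileum. Of the 11 immune markers, the 5 tested in the duodenum were all above 0 (median log2 fold change 1.87), with Cd74 and Ptprc at an unadjusted limma p under 0.05. Of the others, Cd79a, Cd8a and Itgam, which define lymphoid and myeloid cells, were at 0 in all libraries, while the 11 immune markers together summed to 22722 to 57659 after VSG and 2041 to 30442 after sham in the duodenum, with overlap. The part of these cell types in the levels of the respiratory chain genes was not tested.

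Complex I takes electrons from NADH. Ndufv1, a core subunit, ranged from 6971 to 15301 after VSG and from 8116 to 13308 after sham in the duodenum, and in the ileum it was at 3427 and 3237 after VSG and 2412 and 2661 after sham. Ndufs5, an accessory subunit, had duodenal values of 2610, 1663, 2365 and 2634 after VSG, against 3204 and 4063 after sham. The VSG libraries of Ndufs5 all lay below sham, with a log2 fold change of -0.66 ± 0.29, an limma adjusted p of 0.78 and an exact two-sided permutation p of 0.0667, as low as 4 against 2 libraries can go. In the jejunum its log2 fold change was -0.65 ± 0.54, where the groups overlapped, and in the ileum -1.17 ± 0.87, where they did not, at 293 and 789 after VSG and 890.2 and 1328 after sham. The processed pseudogene BC002163 shares 14.2% of the 85-base windows of Ndufs5.

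Ndufab1, the mitochondrial acyl carrier protein, which is also an accessory subunit of complex I, had jejunal values of 2204, 3331, 4276 and 3457 after VSG, against 5806 and 6088 after sham. These did not overlap, with a log2 fold change of -0.88 ± 0.35, an limma adjusted p of 0.76 and an exact permutation p of 0.0667. In the duodenum and the ileum the Ndufab1 groups overlapped, with log2 fold changes of -0.16 ± 0.24 and -0.12 ± 0.60. Ndufa10, an accessory subunit, stood out in the ileum, at 5032 and 9292 normalized counts after VSG and 1732 and 1652 after sham. The log2 fold change was 2.01 ± 0.49 with an limma adjusted p of 0.74, and the exact permutation p was 0.333, as low as 2 against 2 libraries can go. In the other segments the Ndufa10 libraries overlapped, with log2 fold changes of 0.18 ± 0.22 in the duodenum and -0.63 ± 0.37 in the jejunum. Over all 36 nuclear complex I subunits, the median log2 fold change was -0.13, -0.18 and -0.06 from duodenum to ileum.

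The 7 complex I assembly factors were less abundant and more variable than the subunits, with a median within-group SD of 0.58, 0.88 and 4.16 on the log2 scale against 0.21, 0.30 and 0.66 for the subunits. In the ileum 6 of the 7 (Ndufaf2 to Ndufaf7) were listed at 0 in 1 to 3 libraries. Ndufaf1, a core factor of the assembly of the membrane arm, was lower after VSG in both proximal segments, at 541, 489, 669 and 975 normalized counts against 1270 and 1205 in the duodenum, and at 210.1, 596, 216 and 767 against 2077 and 816 in the jejunum. Groups did not overlap in either segment, the log2 fold changes were -0.94 ± 0.43 and -1.78 ± 0.78, and the limma adjusted p-values were 0.81 and 0.76. In the ileum the Ndufaf1 log2 fold change was -0.22 ± 1.13. Of the 7 factors, 4, 6 and 4 lay above 0 from duodenum to ileum, and their medians were 0.09, 0.57 and 0.71.

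Complex II, succinate dehydrogenase, is encoded entirely in the nucleus and is also an enzyme of the TCA cycle. Sdha, its flavoprotein subunit, was at 29027, 33956, 40222 and 32878 normalized counts after VSG and 35011 and 41380 after sham in the duodenum. Sdha had log2 fold changes of -0.17 ± 0.22, -0.40 ± 0.36 and -0.42 ± 0.46 from duodenum to ileum, with overlapping groups in each. Sdhd, a membrane anchor, had overlapping groups in the duodenum and the jejunum, and was at 4869 and 4823 after VSG and 4362 and 2678 after sham in the ileum. All 4 complex II genes lay below 0 in the duodenum and the jejunum, and 1 of 4 in the ileum.

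Complex III passes electrons from ubiquinol to cytochrome c. Uqcrc1, a core protein, had duodenal values of 22555, 26713, 30252 and 36416 after VSG, against 38843 and 37553 after sham. In the ileum the order was the opposite, at 11023 and 13754 after VSG and 6801 and 8642 after sham. Relative to each library's total, the Uqcrc1 groups overlap in the duodenum and stay apart in the ileum. Uqcrc1 had a log2 fold change of -0.42 ± 0.24 in the duodenum (limma adjusted p = 0.86), -0.43 ± 0.35 in the jejunum with overlapping groups, and 0.68 ± 0.35 in the ileum (limma adjusted p = 0.74). Its partner Uqcrc2 ran the other way in the ileum, at 6154 and 4968 after VSG and 8387 and 8092 after sham. The 8 complex III genes had a median log2 fold change of -0.07, -0.33 and 0.07 from duodenum to ileum.

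Complex IV, cytochrome c oxidase, has subunits with tissue-restricted isoforms. Of 8 such isoform genes, Cox6a2, Cox7b2, Cox8b and Cox8c were listed at 0 in all 16 libraries. Cox4i2 was listed above 0 in ileal VSG replicate 4 alone (64.7) and Ndufa4l2 in jejunal VSG replicate 1 alone (81.4). Cox6b2, known from testis, was low, at 72.4 to 403 in the duodenum and 0 to 279 in the jejunum. Cox7a1, the subunit isoform of heart and skeletal muscle, was present in every library, at 1333, 2235, 2224 and 1872 after VSG and 3076 and 2429 after sham in the duodenum. In the jejunum Cox7a1 was at 2012, 1814, 2090 and 2228 after VSG and 4382 and 2717 after sham. The VSG libraries of Cox7a1 lay below sham in both segments, with log2 fold changes of -0.54 ± 0.31 and -0.76 ± 0.35 and limma adjusted p-values of 0.86 and 0.76, and they overlapped in the ileum (-0.70 ± 0.72). No 85-base window of Cox7a1 occurs in another annotated gene. Its ubiquitous counterpart Cox7a2 had log2 fold changes of -0.21 ± 0.20 in the duodenum and -0.14 ± 0.30 in the jejunum. Cox4i1, the ubiquitous subunit with the highest count, was at 29343 to 38509 after VSG and 36968 and 42162 after sham in the duodenum, with log2 fold changes of -0.22 ± 0.22, -0.20 ± 0.34 and 0.09 ± 0.55 from duodenum to ileum. The other ubiquitous counterparts Cox6a1, Cox6b1, Cox7b and Cox8a ranged from 5502 (Cox7b) to 20266 (Cox6a1) normalized counts over the duodenal and jejunal libraries. All 14 complex IV genes tested in the duodenum lay below 0, with a median of -0.21, as did 10 of 15 tested jejunal and 7 of 14 tested ileal ones.

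Complex V makes ATP. Atp5b, its catalytic beta subunit and the most abundant nuclear member by count, was at 94649, 112451, 121907 and 121991 normalized counts after VSG in the duodenum, against 126254 and 124422 after sham. In the jejunum Atp5b was at 72664, 71083, 68341 and 79550 after VSG and 99655 and 82826 after sham, and in the ileum at 38312 and 26049 after VSG and 45469 and 44257 after sham. In the values as deposited, Atp5b thus lay below sham without overlap in all 3 segments. Its log2 fold changes were -0.16 ± 0.25, -0.32 ± 0.40 and -0.51 ± 0.30, with limma adjusted p-values of 0.91, 0.85 and 0.74. Atp5c1, the gamma subunit of the rotor, showed the same order of libraries, at 15250 to 20540 against 22096 and 22268 in the duodenum, 12043 to 13792 against 18810 and 15756 in the jejunum, and 6781 and 6617 against 9624 and 10269 in the ileum. For Atp5c1 the log2 fold changes were -0.26 ± 0.21, -0.39 ± 0.29 and -0.57 ± 0.33. Relative to each library's total, both Atp5b and Atp5c1 overlap between the groups in the duodenum and the jejunum and stay apart in the ileum. Atp5a1, the alpha subunit, overlapped between the groups in each segment.

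Atp5j, a subunit of the stalk of complex V, had the lowest p among nuclear members in the duodenum. It was at 10720, 6217, 11574 and 13886 normalized counts after VSG and 18012 and 16097 after sham, without overlap, for a log2 fold change of -0.74 ± 0.31, an limma adjusted p of 0.76 and an exact permutation p of 0.2. Atp5j had a log2 fold change of -0.83 ± 0.60 in the jejunum with overlap and -0.999 ± 0.55 in the ileum without. Atp5s, named for a coupling factor of the ATP synthase, was at 353, 92.7, 542 and 247 after VSG in the jejunum and at 0 and 55.4 after sham, so that its log2 fold change of 5.11 ± 2.01 (limma adjusted p = 0.76) rests on a library listed at 0. Of the 15 complex V genes, 14, 10 and 12 lay below 0 from duodenum to ileum, with medians of -0.12, -0.22 and -0.36.

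**Figure D5:**
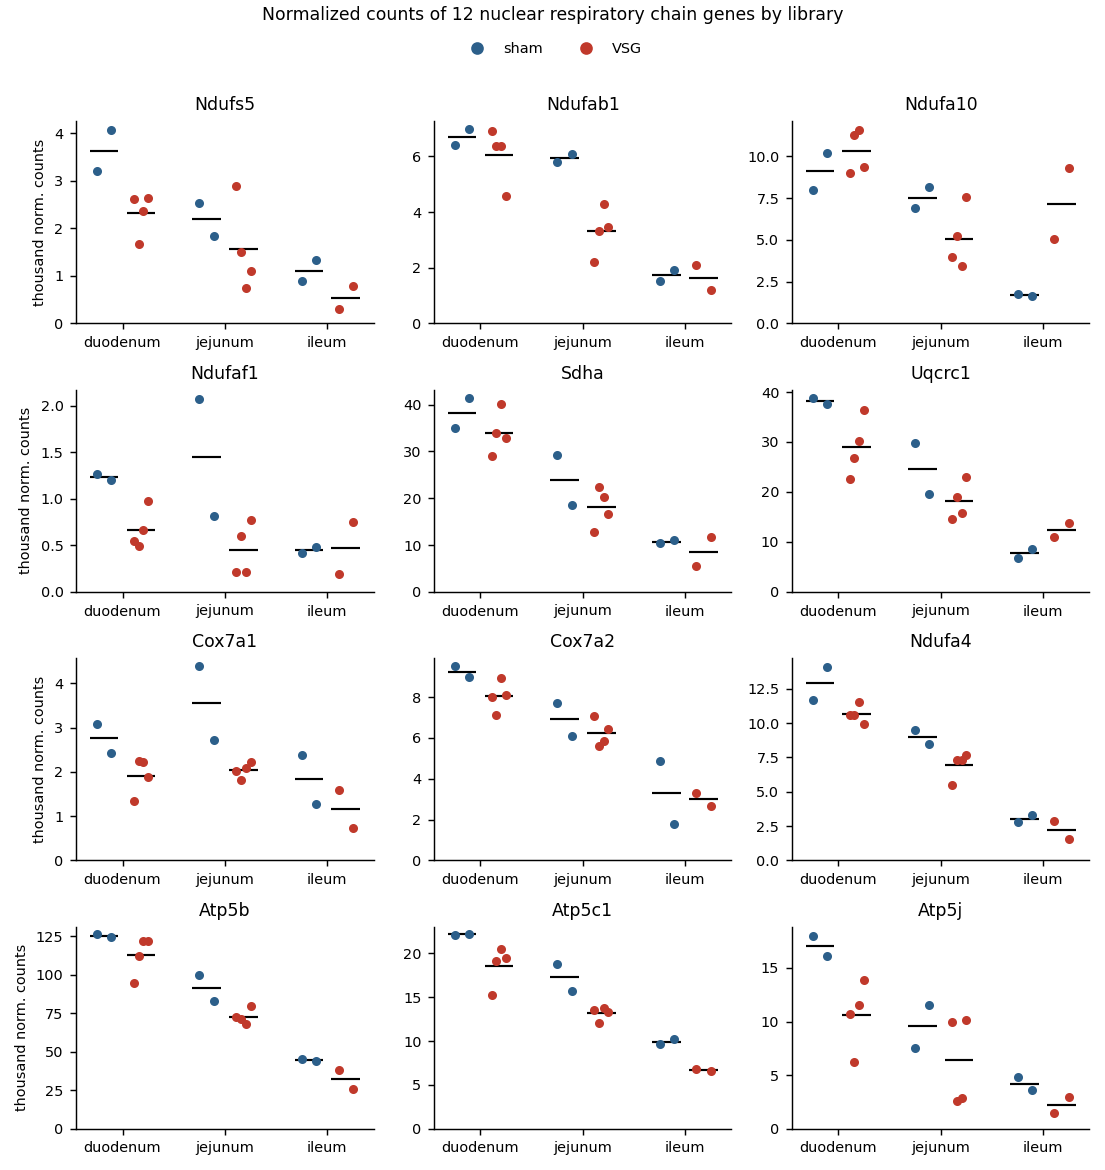
Normalized counts of 12 nuclear members in each library (blue, sham; red, VSG), with group means as bars. In the values as deposited, Atp5b and Atp5c1 lie below sham without overlap in all 3 segments, and Cox7a1, Ndufaf1 and Ndufa4 in the duodenum and the jejunum. Ndufa10 and Uqcrc1 lie above sham in the ileum.

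In the duodenum and the jejunum, which came from the same 6 mice, 7 nuclear members lay below sham without overlap in both segments (Atp5b, Atp5c1, Atp5g3, Ndufa4, Ndufa6, Ndufaf1 and Cox7a1) and none lay above in both. Of the 86 nuclear members tested in both segments this was 8.14%, against a background of 1.41% of 14718 genes below in both, and 0.944% of genes lay above in both. These genes were picked out by this pattern after the values had been seen. The overlaps and shares refer to the values as deposited, where jejunal Sham replicate 1 had the highest total. Relative to each library's total, only Ndufaf1 and Cox7a1 stay below sham without overlap in both segments. On that scale Ndufa6 overlaps in the duodenum, and Atp5b, Atp5c1, Atp5g3 and Ndufa4 overlap in both segments. For Ndufa4 the log2 fold changes were -0.27 ± 0.20 and -0.37 ± 0.30, for Ndufa6 -0.18 ± 0.20 and -0.60 ± 0.30, and for Atp5g3, a subunit of the membrane ring, -0.15 ± 0.20 and -0.50 ± 0.32. The difference between the segments in the VSG effect was examined by subtracting, within each mouse, the duodenal from the jejunal log2 value and comparing these differences between groups in limma. Of 86 nuclear and 13 mitochondrial members tested, 1 (Atp5s) had an unadjusted p under 0.05, against 4.23% of 14718 genes, none had an adjusted p under 0.2, and the smallest adjusted p of the members was 0.98. Leaving out the mouse of Sham replicate 2 gave 1 member with an adjusted p under 0.2, in a fit with 1 sham mouse where 889 of 14718 genes (6.04%) passed.

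Other genes of mitochondrial energy supply were looked at in lists outside the naming rule, and none was called in any segment by limma. Of 18 genes of the TCA cycle and pyruvate entry, 15, 17 and 9 lay below 0 from duodenum to ileum, with medians of -0.16, -0.27 and 0.01 and no p under 0.05. Of 20 complex IV assembly genes, 14, 14 and 10 of those tested lay below 0, and in the duodenum Sco2, a copper chaperone of complex IV, was at 1199, 884, 852 and 1252 after VSG and 2856 and 2204 after sham, for a log2 fold change of -1.28 ± 0.33 (limma adjusted p = 0.49). In the ileum Cox15, which makes heme A, was at 2437 and 1203 after VSG and 123 and 588 after sham, for a log2 fold change of 2.66 ± 1.06 (limma adjusted p = 0.74). The 7 further complex I, 4 complex II, 7 complex III and 5 ATP synthase assembly or partner genes had no p under 0.05 apart from Sdhaf1 in the ileum, at 322 and 275 after VSG and listed at 0 in both sham libraries. Of 12 electron carrier and coenzyme Q genes, 9, 7 and 5 lay below 0, and Coq6 and Coq10a in the ileum, at 702 and 309.8 and at 177 and 296 after VSG, were at or near 0 in both sham libraries. The ileal sham libraries were also the shallowest, so depth and surgery cannot be told apart for these ileal genes.

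Regulators of mitochondrial biogenesis were mixed, with 6, 7 and 5 of 16 below 0. In the jejunum Ppargc1a, the coactivator PGC-1α, was at 517, 1196, 2290 and 1575 after VSG and 4834 and 4044 after sham, without overlap, for a log2 fold change of -1.85 ± 0.55 (limma adjusted p = 0.76). Its duodenal libraries overlapped. Pprc1, a related coactivator, was at 11240, 8461, 3919 and 1529 after VSG and 1443 and 1191 after sham in the duodenum, with log2 fold changes of 1.90 ± 0.67 there and 2.98 ± 1.14 in the jejunum, where the groups overlapped (limma adjusted p = 0.64 and 0.76). Polrmt, the RNA polymerase of mitochondria, was at 2431, 3620, 2412 and 3323 after VSG and 1104 and 2313 after sham in the duodenum, for a log2 fold change of 0.86 ± 0.35 (limma adjusted p = 0.75). Mterf3 in the ileum, a regulator of mitochondrial transcription, was at 903 and 1744 after VSG and 48.6 and 0 in the shallower sham libraries. Of 12 mitochondrial carrier and import genes, 9, 5 and 5 lay below 0 with no p under 0.05.

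Of 15 glycolysis genes, 10, 11 and 7 lay below 0 from duodenum to ileum. Among those above 0 in the jejunum were the hexokinases, which start glycolysis, and Hk2 was at 2262, 2168, 3835 and 2087 after VSG and 706 and 819 after sham, for a log2 fold change of 1.72 ± 0.41 (limma adjusted p = 0.76, exact permutation p = 0.0667). Hk1 was at 373, 1402, 287 and 300 after VSG and at 0 and 122 after sham in the jejunum, for a log2 fold change of 5.38 ± 1.91 (limma adjusted p = 0.76) that rests on a library listed at 0. In the ileum and the duodenum both hexokinases overlapped between the groups.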

How the data were processed

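The series comprises 16 poly(A) RNA libraries from sorted Lgr5-EGFP+ cells of 7 mice, sequenced as single-end 85 nt reads. The authors deposited signal values, that is read counts normalized with DESeq2, in 1 table per segment. Per the labels and the submitters' processing notes, reads were handled with STAR 2.5.3a, Salmon 0.6.0 and DESeq2 (version not given in the sources used here) on mm10. Because the tables were scaled separately, levels were not set across segments. The authors' log2 fold changes and p-values, also deposited as tables, were not used. Values fell on whole reads for only 28.1% to 40.4% of entries, so no count test was run.

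Segments were fitted separately with limma 3.58.1 in R 4.3.3 (trend, log2 of the value + 1, genes with a mean above 10), with Benjamini-Hochberg adjustment over all genes tested and a call at p under 0.05, adjusted p under 0.2, absolute log2 fold change above 0.5 and mean above 50. Exact two-sided permutation tests covered single genes and go no lower than 0.0667 (4 against 2) or 0.333 (2 against 2). Everything else ran in Python 3.11.15 (matplotlib 3.10.9, pandas 2.3.3, numpy 2.4.6, scipy 1.17.1). The limma step was also run on simulated data with known changes in genes of high count and low spread. Those changes were larger than most differences reported here, so the run does not bear on small differences or on genes of low count. Limma draws each gene's spread towards that of genes of similar level, so its SE and p-values do not rest on that gene's libraries alone. The exact permutation p uses only the values of the gene tested.

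Symbols of the members came with the deposited values. Gene positions, types and lengths came from GENCODE M21, matching 48058 of 48440 IDs, and promoters from RefSeq (GRCm38.p6). The genes named were the mitochondrial genes, the 2 most abundant nuclear members of each complex, members with an unadjusted p under 0.05 and no overlap between groups, tissue-restricted isoforms with their ubiquitous counterparts, and members of related lists with an unadjusted p under 0.05. Some results that fall under this rule are not reported here. Members, lists and tests were chosen with earlier results of these data known. Replicate numbers were tried as a block in the duodenum, although a number names a different mouse in each group. Alternatives covered the pseudocount, the filter, the scaling, the trend, the adjusted p and each library left out.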

Additional observations from a re-analysis of the deposited data

Results flagged for a closer look

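Of all 77 pairs of a measure and a group of 4 libraries that were checked, 3 had a library far from the others. In these 3 pairs it was VSG replicate 1 of the jejunum that stood apart from the other 3 VSG libraries. Its mt-Nd1 value was 87543.4 normalized counts, against 164731 to 171601 in the others. Its Uqcrc2 value was 8690.86, against 13279.5 to 14058.9, and its Ndufa4l2 value was 81.3936, where the others were listed at 0. Chance sets apart about 1 in 20 such groups.

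In the values as deposited, Uqcrc1 ran in opposite directions in 2 segments. All VSG libraries lay below sham in the duodenum (log2 fold change -0.4201) and above sham in the ileum (0.6835). Relative to each library's total, the duodenal groups overlap. This difference between segments was not tested.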

How the results depend on the processing

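Of 184 comparisons of 13 main results with their alternatives, 172 kept their direction and their side of the threshold. The median of nuclear genes in the jejunum was -0.19 as deposited, -0.049 after quantile normalization, 0.035 with libraries scaled to the same total and 0.0028 with mitochondrial genes left out of that total. Without trend in limma, 1 mitochondrial gene was called in the ileum, where 463 genes of all were then called. The same scalings turned the sign of jejunal Cox4i1 (0.021 and 0.028 for quantile and same total), Cox7a2 (0.0005, 0.085 and, for the nuclear total, 0.052), Atp5b (quantile 0.14) and mt-Cytb (quantile 0.12), and quantile normalization that of ileal mt-Cytb (0.22). Sums with the chromosome 1 copies, chosen after seeing the data, gave -0.23 for duodenal and -0.28 for ileal mt-Nd3. For the scalings the cause was not tested.

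With each library left out in turn, which leaves 1 library in a group of 2, calls ranged from 0 to 11 nuclear and 0 to 1 mitochondrial genes in the jejunum, 0 to 1 and 0 to 1 in the ileum, and 0 to 1 for the difference between segments. The jejunal nuclear median ranged from -0.38 to -0.12. Log2 fold changes that crossed 0 ranged, in the duodenum, from -1.59 to 0.35 for mt-Co3, -0.25 to 0.91 for mt-Nd3 and -0.51 to 0.016 for mt-Cytb. In the jejunum they ranged from -0.50 to 0.10 for Cox4i1, -1.05 to 0.10 for mt-Cytb and -0.31 to 0.023 for Cox7a2. In the ileum they ranged from -1.20 to 0.75 for Ndufaf1, -0.53 to 0.30 for Ndufab1, -0.97 to 0.13 (Sdha, ileum), -0.69 to 0.86 for Cox4i1, -2.84 to 1.81 (mt-Co3, ileum) and -0.60 to 0.072 for mt-Cytb.

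The replicate numbers name different mice in the VSG and sham groups, and same-numbered duodenal libraries did not deviate together (correlations -0.0489 and -0.0263). With the replicate block in the duodenum, 0 members were called, the nuclear median was -0.23 and the mitochondrial median -0.02, and mt-Co3 by its own row was 0.44. With 2 sham mice throughout, and 2 VSG mice in the ileum, the main limma fits called no member. Differences of the size seen here remain unresolved.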
